A study of Mus musculus with 120 samples.

Results

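The genes described here are Cd36 and 4 genes of the fatty acid transport protein family, Slc27a1, Slc27a2, Slc27a4 and Slc27a5. They were taken by name, and are 5 of the 24883 rows of a table of liver RNA levels. The livers came from mice of 10 Collaborative Cross strains, which are inbred lines bred from crosses of several founder strains and so differ widely in their genomes. In each strain, females and males received either a high-fat, high-sucrose (HF/HS) diet, in which 42% of the energy came from milkfat rich in palmitic acid, with 0.2% cholesterol and more than 30% sucrose, or a control diet matched in its ingredients, with little fat and less sucrose. Feeding lasted 12 weeks, and each of the 40 strain, sex and diet groups had 3 libraries. The strains are labelled CC060, CC003, CC043, CC011, CC042, CC013, CC041, CC019, CC040 and CC032. The labels give no age and name no introduced allele, and they do not say whether libraries of 1 group came from separate mice. p-values therefore measure only the spread between libraries.

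CD36 is a membrane glycoprotein of the class B scavenger receptors that binds long-chain fatty acids and oxidised lipoproteins and takes part in fatty acid uptake. It is abundant in adipose tissue, muscle, macrophages and capillary endothelium, lower in hepatocytes of lean animals, and known to rise in fatty liver. The SLC27 proteins combine transport across membranes with acyl-CoA synthetase activity, which traps a fatty acid as its CoA ester. SLC27A1 is mainly a protein of muscle and fat. SLC27A4 is widespread and abundant in intestine and skin. SLC27A2 and SLC27A5 are the main forms of the hepatocyte. SLC27A2 also activates very-long-chain fatty acids, and SLC27A5 acts as the bile acyl-CoA synthetase that prepares bile acids for conjugation.

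In the deposited table, which uses mouse build mm10, Cd36 lies on chromosome 5 from 17781690 to 17888959 on the minus strand, with 3 start sites listed. Slc27a1 lies on chromosome 8 from 71568927 to 71586708, Slc27a2 on chromosome 2 from 126553024 to 126588243 and Slc27a4 on chromosome 2 from 29802680 to 29817522, all on the plus strand. Slc27a5 lies on chromosome 7 from 12988346 to 12998192 on the minus strand. The values are sums over each gene's transcripts. The antisense noncoding gene Gm26697 overlaps the 5′ end of Slc27a2. The library kits mark strand, but the strand setting of the counting is not given in the sources used here.

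Promoters are shown for Cd36, Slc27a2 and Slc27a4, the genes whose diet or strain differences are described most fully below. Each line holds the 250 bases before a RefSeq start site in build GRCm38.p6, written 5′ to 3′ on the gene's strand. For Cd36 the RefSeq table used here gives 1 start site, which lies inside the gene span above rather than at its 5′ end, so its window stands for 1 of several start sites. Capitals mark AGGTCA or its reverse complement TGACCT, the half-site of nuclear receptors such as the PPARs. The windows are chr5:17835897-17836146 on the minus strand, chr2:126552774-126553023 on the plus strand and chr2:29802384-29802633 on the plus strand.
Cd36: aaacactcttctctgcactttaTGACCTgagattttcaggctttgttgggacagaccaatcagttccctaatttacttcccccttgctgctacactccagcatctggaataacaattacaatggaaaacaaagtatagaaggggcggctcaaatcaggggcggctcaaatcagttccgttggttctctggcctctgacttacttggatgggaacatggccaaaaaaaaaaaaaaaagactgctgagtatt
Slc27a2: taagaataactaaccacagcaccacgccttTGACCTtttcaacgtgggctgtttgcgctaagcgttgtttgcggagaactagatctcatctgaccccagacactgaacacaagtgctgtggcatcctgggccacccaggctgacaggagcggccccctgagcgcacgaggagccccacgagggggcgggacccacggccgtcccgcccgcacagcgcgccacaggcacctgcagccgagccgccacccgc
Slc27a4: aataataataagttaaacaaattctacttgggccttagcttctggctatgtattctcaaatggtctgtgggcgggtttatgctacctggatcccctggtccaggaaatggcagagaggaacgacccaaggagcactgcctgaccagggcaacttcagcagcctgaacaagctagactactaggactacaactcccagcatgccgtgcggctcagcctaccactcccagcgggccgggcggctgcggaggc
The Cd36 window held 1 half-site, whose last base lay 223 bases before the start. The Slc27a2 window also held 1, at 215 bases, and the Slc27a4 window held none. Of the 32851 promoter windows of this length, 14.0% held AGGTCA on either strand. A direct repeat of AGGTCA with any 1 base between the copies was in none of the 3 windows and in 0.0335% of all. These are letters of the reference genome, not of the Collaborative Cross strains, and a match is a description of the sequence only.

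Values are in an FPKM-like unit that accounts for gene length, scaled by the submitters so that the 75th percentile of each library is close to 10. Depth in reads is unknown. Of the 120 columns, a control and an HF/HS column of CC040 females were identical and both were left out, which leaves 59 libraries on each diet. The values of a library summed to between 3192044 and 4629868 in CC003 and to between 926928 and 1986957 in CC060. In the other 8 strains the sums lay between 943592 and 1365518. The labels name 2 library kits, 1 for ribosomal depletion and 1 for mRNA, without saying which libraries had which. Comparisons between strains on 1 diet use the 8 strains other than CC003 and CC060, while diet comparisons are made within each strain. That choice was made with earlier results of these data known. The sums of CC003 lay wholly above those of the 8 strains, whereas those of CC060 overlapped them. Among hepatocyte markers, Apob, Apoa1 and Cps1 passed the filter, but Alb, the albumin gene, was listed at 0 in 102 of these libraries, so a 0 in this table can be a failed estimate. None of the 5 genes was at 0 in any library.

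Slc27a2 and Slc27a5 were the most abundant of the 5 genes, and Slc27a1 the least. On the control diet the mean level was 972 ± 224 for Slc27a2, 716 ± 136 for Slc27a5, 51.4 ± 34.6 for Cd36, 16.3 ± 3.23 for Slc27a4 and 2.70 ± 1.41 for Slc27a1 (SD, n = 59). Slc27a2 exceeded Slc27a5 in 51 of 59 control libraries and in 56 of 59 HF/HS libraries. Slc27a5 exceeded Cd36, and Slc27a4 exceeded Slc27a1, in all 59 libraries of each diet. Cd36 exceeded Slc27a4 in 53 of 59 control and 56 of 59 HF/HS libraries. The other family members of the table, Slc27a3 and Slc27a6, had median levels of 0.486 and 0.221 and were below the filter for testing.

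**Figure D1:**
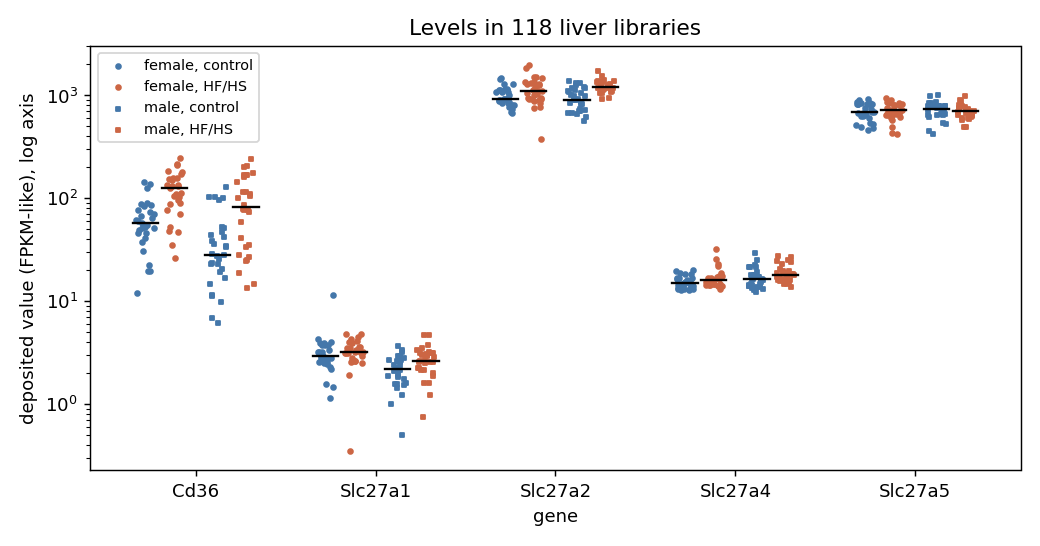
Levels of the 5 genes in the liver libraries, as deposited FPKM-like values on a log axis, with a point for each library (circles female, squares male; blue control diet, orange HF/HS diet) and a bar at each group's median. Slc27a2 and Slc27a5 lie highest, Cd36 spans 6.20 to 249, and Slc27a4 and Slc27a1 lie lowest.

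The diet comparison asks which livers carried more of these transcripts after 12 weeks of HF/HS feeding. Cd36 rose, with a mean level of 109 ± 62.4 on HF/HS (SD, n = 59). Slc27a2 rose to 1191 ± 263 and Slc27a4 to 17.9 ± 3.96, both by far less. Slc27a1 was at 2.98 ± 0.926 on HF/HS. Slc27a5 did not pass the test, at 706 ± 120.

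On the scale log2(value + 1), which understates changes of low genes, the diet difference averaged over strains and sexes was 1.10 ± 0.0643 for Cd36 (SE, adjusted p = 2.41e-25). It was 0.29 ± 0.0543 for Slc27a2 (adjusted p = 1.14e-05), 0.12 ± 0.0226 for Slc27a4 (adjusted p = 1.10e-05) and 0.13 ± 0.0497 for Slc27a1 (adjusted p = 0.0305). For Slc27a5 it was -0.01 ± 0.0311 (adjusted p = 0.85), with a 95% interval from -0.0713 to 0.0525. All p-values are from limma with Benjamini-Hochberg adjustment over the 12205 genes tested, of which 32.6% passed, 17.2% as higher and 15.4% as lower on HF/HS. All 4 called members were higher. The Slc27a1 call was lost with a pseudocount of 5 (adjusted p = 0.0532), after quantile normalization (adjusted p = 0.0548) and in 6 of 12 fits that each left out the libraries of 1 replicate number in 1 sex and diet. After quantile normalization Slc27a5 was called higher, by 0.07 (adjusted p = 0.00181), and with strains as the units the Slc27a4 call was lost (adjusted p = 0.104).

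Cd36 was higher on HF/HS in all 20 strain and sex groups, which held for 0.246% of the genes tested. In 16 of the 20 groups every HF/HS library was above every control library; over all genes and groups that happened in 11.1% of cases. The 4 groups that overlapped were males of CC011, CC013 and CC019 and females of CC060. Among CC013 males the log2 difference was only 0.0033, and the mean of the untransformed values was lower on HF/HS, at 25.8 ± 1.16 against 27.6 ± 13.3 (SD, n = 3).

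**Figure D2:**
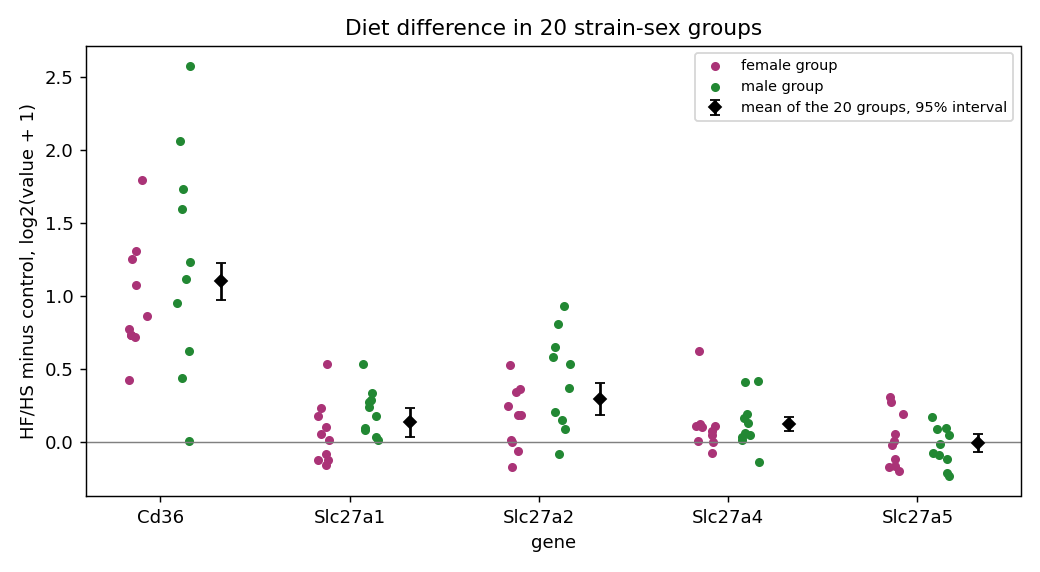
Difference between HF/HS and control in log2(value + 1) for the 5 genes, with a point for each of 20 strain and sex groups (10 female, 10 male) and a diamond for their mean with its 95% interval. All 20 points of Cd36 lie above 0, with a mean of 1.10, whereas those of Slc27a5 lie on both sides of 0.

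On the log2 scale, the rise of Cd36 was largest in CC041. In deposited units the mean went from 19.6 to 86.6 in CC041, from 49.2 to 162 in CC042 and from 114 to 216 in CC032. In those units CC041 did not have the largest rise. In CC041 males the control libraries were at 14.6, 11.4 and 11.4 and the HF/HS libraries at 59.0, 106 and 76.7. In CC041 females they went from 19.9, 22.4 and 38.0 to 112, 76.4 and 89.6. In both sexes every HF/HS library lay above every control library, and the diet difference was 2.18 ± 0.201 (adjusted p = 2.17e-13; 4.4% of genes were called in this strain).

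CC042 and CC043 followed. In CC042 males Cd36 went from 51.0, 43.6 and 35.9 to 203, 178 and 167, and in CC042 females from 61.7, 51.8 and 51.0 to 132, 105 and 183. CC043 males went from 27.7, 28.2 and 33.9 to 114, 78 and 116, and CC043 females from 57.8, 64.6 and 55.0 to 131, 125 and 173. Groups did not overlap in either sex of either strain. The differences were 1.68 ± 0.201 in CC042 (adjusted p = 1.42e-09; 4.51% of genes called) and 1.49 ± 0.201 in CC043 (adjusted p = 1.86e-07; 6.04%).

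CC003, CC011, CC032 and CC060 passed as well, with smaller log2 differences. In CC003, females went from 77.6, 88.6 and 86.0 to 136, 149.5 and 135, and males from 25.6, 28.6 and 38.4 to 110.1, 101 and 73.5. CC011 females went from 90.2, 60.4 and 84.8 to 158, 179 and 156, whereas CC011 males went from 46.8, 20.6 and 22.8 to 86.7, 77.3 and 35.4, with 1 HF/HS male below the highest control male. CC032 had the highest levels of the series, from 145, 126 and 139 to 211, 215 and 249 in females and from 96.7, 128 and 52.2 to 169.6, 205 and 244 in males. CC060, which is left out of comparisons between strains, had the lowest listed values. Its males went from 9.90, 6.89 and 6.20 to 18.7, 13.5 and 14.7. Its females went from 41.0, 19.8 and 12.0 to 52.3, 26.1 and 34.9. The strain differences were 1.16 in CC003 (adjusted p = 2.93e-05; 9.79% of genes called), 1.10 in CC011 (adjusted p = 0.00208; 0.197%), 0.97 in CC032 (adjusted p = 0.000546; 5.57%) and 0.84 in CC060 (adjusted p = 0.0023; 13.4%).

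The other 3 strains did not pass the test. The difference was 0.39 in CC013 (95% interval -0.0137 to 0.786), 0.43 in CC019 (0.0329 to 0.833) and 0.74 in CC040 (0.293 to 1.19), where 0.41%, 0.852% and 0.401% of genes were called. CC019 females went from 45.9, 30.9 and 46.0 to 47.2, 48.6 and 70.2, and CC019 males from 23.0, 34.1 and 19.3 to 41.4, 33.5 and 28.2. CC013 females did not overlap, at 52.2, 49.3 and 73.1 against 111, 88.4 and 96.8, but CC013 males did, at 17.0, 23.3 and 42.5 against 27.1, 24.9 and 25.3. In CC040 the males were at 101, 103 and 104 on control and at 161, 145 and 169 on HF/HS, and the 2 usable females of each diet at 71.2 and 67.3 and at 156 and 102. The interval of CC013 includes a small fall as well as rises. Those of CC019 and CC040, which are not adjusted for the number of genes tested, include only rises. A missed threshold therefore does not show that Cd36 stayed level in these strains.

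**Figure D3:**
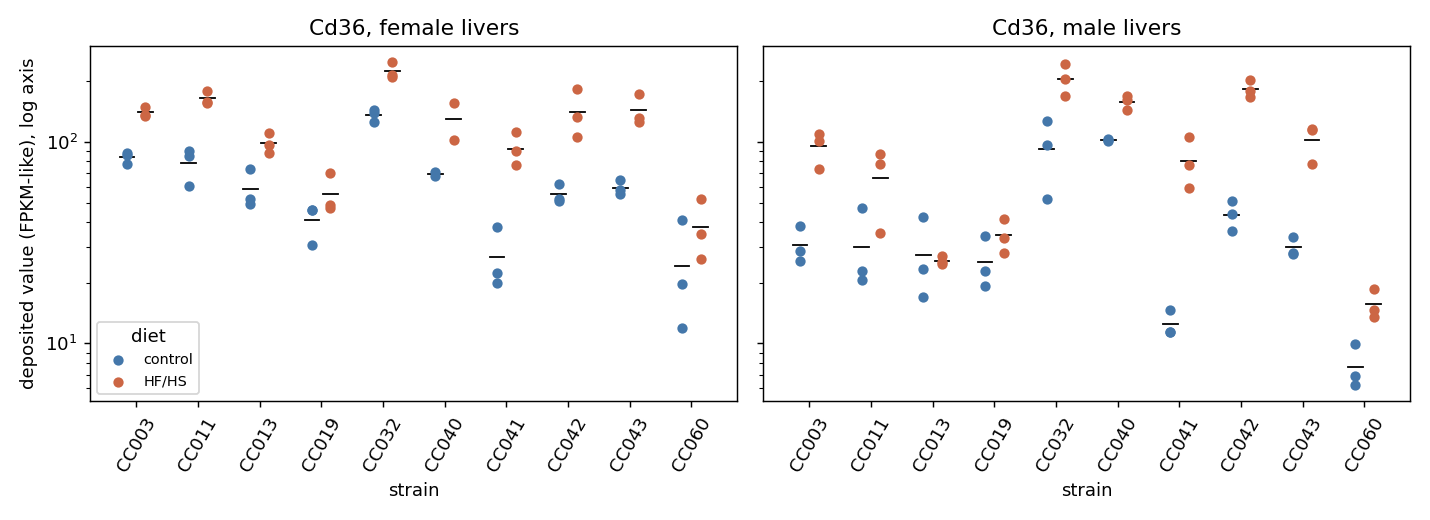
Cd36 in each library, as deposited FPKM-like values on a log axis, by strain, in females (left) and males (right); blue points are control, orange points HF/HS, and bars are group means. In CC041 males the control points lie at 11.4 to 14.6 and the HF/HS points at 59.0 to 106, while in CC013 males the 2 diets overlap.

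The size of the Cd36 rise differed between strains by an F test over the 10 strains (F = 7.71, adjusted p = 1.45e-05), a test that 5.54% of genes passed. CC041 exceeded the mean of the other 9 strains by 1.20 ± 0.212 (adjusted p = 0.00127; 0.0737% of genes called). That call was lost when the second male HF/HS replicate of every strain was left out (adjusted p = 0.0503), although the lowest value over the 12 such fits was 1.08. No other strain differed from the rest by this test. CC013 and CC019 were lowest, at -0.79 (adjusted p = 0.206) and -0.74 (adjusted p = 0.206). The CC013 difference passed in 1 of the 12 fits, the one without the first male control replicates (adjusted p = 0.0384).

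Strains also differed in Cd36 on the control diet (F = 29.5, adjusted p = 1.22e-18 over 8 strains), as did 86.5% of all genes. From high to low the order was CC032, CC040, CC042, CC011, CC043, CC013, CC019 and CC041. Mean levels ran from 114 ± 34.6 in CC032 (n = 6) and 89.1 ± 18.2 in CC040 (n = 5) to 33.2 ± 11.2 in CC019 and 19.6 ± 10.1 in CC041 (SD, n = 6). Of neighbours in that order, only CC040 and CC042 (0.78 ± 0.213, adjusted p = 0.00248; 31.5% of genes called) and CC019 and CC041 (0.79 ± 0.201, adjusted p = 0.0013; 31.8%) differed; the middle 5 strains, CC042 to CC019, could not be separated step by step. CC032 was above the mean of the other 7 by 1.40 ± 0.152 (43.8% of genes called) and CC041 below it by a difference of -1.50 ± 0.152 (39.8%). CC040 was also above the mean of its other 7, by 0.99 (adjusted p = 1.57e-06, with 31.2% of genes called). CC019 was below that of its other 7 by a difference of -0.60 (adjusted p = 0.00115), a comparison whose share of genes called is not given here. On HF/HS the CC041 mean reached 86.6 ± 19.9 and the CC032 mean 216 ± 28.7 (SD, n = 6). The control libraries enter both the control level and the diet difference, so these values are given side by side and were not correlated.

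Females had more Cd36 than males. On the control diet the mean was 63.0 ± 33.0 in females (n = 29) and 40.2 ± 32.8 in males (n = 30), a male minus female difference of -0.85 ± 0.0910 (adjusted p = 6.03e-13); 43.5% of genes differed by sex, 18.8% lower and 24.8% higher in males. On HF/HS the means were 122 ± 56.2 and 96.8 ± 66.4 (SD), and the difference was -0.58 ± 0.0910 (adjusted p = 1.21e-07; 45.4% of genes called). The HF/HS call was lost with strains as the units (adjusted p = 0.0634). The rise on HF/HS was 0.97 in females and 1.23 in males, and the difference between them, 0.26 ± 0.129, did not pass (adjusted p = 0.417; 0.877% of genes passed).

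The sex difference was not alike in all strains (F = 4.13, adjusted p = 0.00488 on control, F = 6.47, adjusted p = 3.18e-05 on HF/HS), a comparison added after these data were seen; 12.4% and 19.1% of genes passed it. On control, females were higher in 9 of 10 strains, and males were called lower in CC003, CC011, CC013, CC041, CC043 and CC060, by differences from -0.96 to -1.43. The shares of genes called in those strains were 9.81%, 4.51%, 5.56%, 5.15%, 6.62% and 33.4%, in that order. CC040 ran the other way, with males at 101 to 104 and females at 67.3 and 71.2, a difference of 0.56 that did not pass (adjusted p = 0.537). On HF/HS, males had the higher mean in CC040, 158 ± 12.3 against 129 ± 38.2, and in CC042, 183 ± 18.2 (n = 3) against 140.4 ± 39.7. In CC011 on HF/HS the order was the reverse, with 66.5 ± 27.3 in males and 164 ± 13.1 in females (SD, n = 3).

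These are whole-tissue libraries, in which more cells of a type and more RNA per cell cannot be told apart, and Cd36 is also a gene of macrophages and endothelium. Of 12 macrophage markers, 7 rose on HF/HS (58.3%, against 17.2% of all genes) and none fell. Among those that rose were Gpnmb, by 0.92, and Trem2, by 0.44. Both were very low, with medians of 0.178 and 0.47, and were listed at 0 in 11 and 19 libraries. Clec4f, Vsig4 and Timd4, some of the listed markers of resident Kupffer cells, had values of 0.09, 0.10 and 0.05 and did not pass. The list also holds Marco, Cd5l and Adgre1, which Kupffer cells express, and at least 1 of these was among the markers that rose. The summed level of the 12 had a median of 447 on control and 605 on HF/HS in females, with ranges of 225 to 1528 and 261 to 1821. In males the medians were 382 and 431, with ranges of 170.4 to 747 and 83.6 to 805. Of 10 endothelial markers, 2 rose (20%, near the share over all genes) and none fell, Stab2 by 0.12 and Pecam1 by 0.09, and their median sum went from 285 to 279 in females and from 235 to 248 in males. On the control diet 8 macrophage and 9 endothelial markers were lower in males, as Cd36 was and 18.8% of all genes were. Of 10 hepatocyte markers, 5 fell on HF/HS and 1 rose (50% and 10%, against 15.4% and 17.2% of all genes), with a median of -0.21. Tat, a tyrosine aminotransferase, fell by 0.42, the urea cycle genes Ass1 and Cps1 by 0.34 and 0.27, the transthyretin gene Ttr by 0.25 and Apoa1 by 0.23. The 1 called higher was Alb, the gene listed at 0 in most libraries. The part of these cells in the Cd36 differences was not tested. Of 7 adipocyte markers, 2 could be tested. Both rose in males, Cidea by 0.75 and Cfd by 1.05, and had values of 0.11 and -0.03 in females that did not pass, and for both the difference between the sexes passed (0.64, adjusted p = 0.00249, and 1.08, adjusted p = 0.00504). The summed level of the 7 reached 436 in an HF/HS male. Over all libraries used, the adipocyte genes Plin1 and Lep were listed at 0 in 93 and 111. Adipoq, Adig and Retn were at 0 in 55, 67 and 84, and reached 4.90, 10.3 and 10.0. These counts are not split by sex or diet. None of 6 muscle markers passed the filter.

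Pparg, the nuclear receptor whose target genes include Cd36, rose by 0.73 ± 0.0609 on HF/HS (adjusted p = 3.21e-17). By strain, its difference was 1.40 in CC041, 1.21 in CC043, 1.17 in CC003, 1.14 in CC042, 0.87 in CC032 and 0.59 in CC060, all past the test. In CC013, CC011 and CC040 it was 0.22, 0.39 and 0.56, and in CC019 -0.24, none past it. CC011 was therefore called for Cd36 and not for Pparg. Within strains the 2 genes had r = 0.778 over 40 group means centred on each strain, a description over points that share strains, diets and sexes. The groups departed from each other in places. CC003 and CC032 females had Pparg differences of 1.69 and 1.26 with Cd36 differences of 0.73 and 0.72, whereas CC041 females had 0.78 for Pparg and 1.79 for Cd36.

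**Figure D4:**
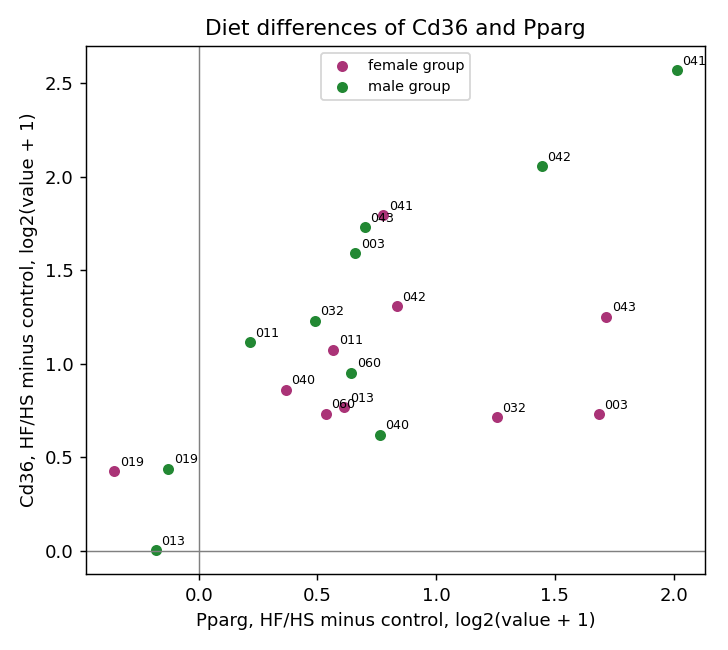
HF/HS minus control in log2(value + 1) for Pparg (horizontal) and Cd36 (vertical), with a point for each strain and sex group, labelled by strain number. CC041 males stand highest for both, at 2.01 and 2.57, and CC003 and CC032 females lie to the right, with Pparg differences of 1.69 and 1.26 and Cd36 differences of 0.73 and 0.72.

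Slc27a2, the most abundant SLC27 gene, passed the diet test in males and not in females. Males went from 948 ± 236 to 1243 ± 163 (n = 30), a difference of 0.42 (adjusted p = 1.09e-05; 20.9% of genes called), and females from 996 ± 212 to 1138 ± 332 (SD, n = 29), a difference of 0.16 (adjusted p = 0.14; 17.7% called). The difference between the sexes was 0.26 and did not pass (adjusted p = 0.331). Among CC011 females 1 HF/HS library was at 376 beside 1133 and 1260.2. Without that library the female difference was 0.22 and passed (adjusted p = 0.0164).

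By strain, Slc27a2 passed the diet test only in CC060, at 0.64 (adjusted p = 0.00599), where 13.4% of genes were called. CC060 males went from 908, 747 and 703 to 1389, 1383 and 1710.4 without overlap (0.93, adjusted p = 0.00352; 22% of genes called), and CC060 females from 1483, 1140.3 and 1118 to 1102, 1848 and 1967 with overlap. CC003 males also passed, from 565, 664 and 714 to 1151, 1061 and 1165 (0.80, adjusted p = 0.0288; 6.25% called). The CC060 male call was lost without the third male control replicates (adjusted p = 0.0754), and the CC003 male call in 5 of 12 such fits (up to adjusted p = 0.129). The gene was higher on HF/HS in 17 of 20 groups. In 5 of the 20 every HF/HS library was above every control library, which over all genes and groups happened in 11.1% of cases. Neither its diet difference (F = 1.11, adjusted p = 0.635) nor its control level (F = 1.16, adjusted p = 0.35) differed between strains by the F tests. On control, sexes did not differ by the test (-0.09, adjusted p = 0.384), and on HF/HS the male minus female difference was 0.17 (adjusted p = 0.0549), which passed in several alternatives given in the closing section.

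Slc27a4 rose by a small amount over all strains, and its largest strain difference was in CC032. CC032 females went from 18.8, 15.5 and 16.9 to 25.7, 22.9 and 32.1, and CC032 males from 21.4, 21.7 and 16.5 to 27.4, 27.0 and 25.3. Neither sex overlapped, and the difference was 0.51 ± 0.0705 (adjusted p = 9.69e-08, with 5.57% of genes called in this strain). CC042 passed as well, at 0.27 (adjusted p = 0.0116, with 4.51% of genes called). Its males went from 13.2, 12.7 and 12.3 to 17.2, 18.9 and 16.2, and its females from 13.9, 12.9 and 12.7 to 14.4, 13.0 and 15.9 with overlap. The CC042 call was lost in 2 of 12 fits without 1 replicate number, those without the third female or the second male HF/HS replicates (up to adjusted p = 0.0727).

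The diet difference of Slc27a4 varied between strains (F = 5.61, adjusted p = 0.000724), by a test that 5.54% of genes passed. Without CC032 this F test did not pass (F = 2.29, adjusted p = 0.23). CC032 exceeded the mean of the other 9 by 0.44 ± 0.0744 (adjusted p = 6.27e-05; 1.17% of genes called). CC060 was below the others by a difference of -0.26 ± 0.0744 (adjusted p = 0.0284; 6.12% called). Its males were at 18.1, 19.3 and 29.2 on control and 19.6, 18.8 and 20.4 on HF/HS, so that 1 control library lay far above the rest, and its females at 19.5, 17.0 and 20 and at 17.0, 17.4 and 18.9. The CC060 call was lost in 5 of 12 fits without 1 replicate number, among them the one without the third male controls (up to adjusted p = 0.352).

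On control, Slc27a4 also differed between strains (F = 15, adjusted p = 1.15e-11), as did 86.5% of all genes. The order ran CC040, CC032, CC011, CC041, CC043, CC019, CC013 and CC042, with means from 21.2 ± 2.85 in CC040 (n = 5) to 13.0 ± 0.54 in CC042 (SD, n = 6). No neighbours in it differed by the test, yet CC040 was above the mean of the other 7 by 0.42 (adjusted p = 1.19e-08; 31.2% of genes called) and CC042 below it by a difference of -0.30 (adjusted p = 3.87e-06; 32.6%). Slc27a4 was the one member of the 5 called higher in males, by 0.11 on control (adjusted p = 0.00447) and 0.13 on HF/HS (adjusted p = 0.000594), with means of 17.1 ± 3.93 and 15.5 ± 2.06 on control. The control call was lost with strains as the units (adjusted p = 0.125) and without the second female control replicates (adjusted p = 0.0781). Its rise passed in females (0.11, adjusted p = 0.0103) and in males (0.13, adjusted p = 0.000962). The female call was lost without CC032 (adjusted p = 0.276) and without the second female control replicates (adjusted p = 0.113). With strains as the units neither sex passed (adjusted p = 0.245 and 0.177).

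**Figure D5:**
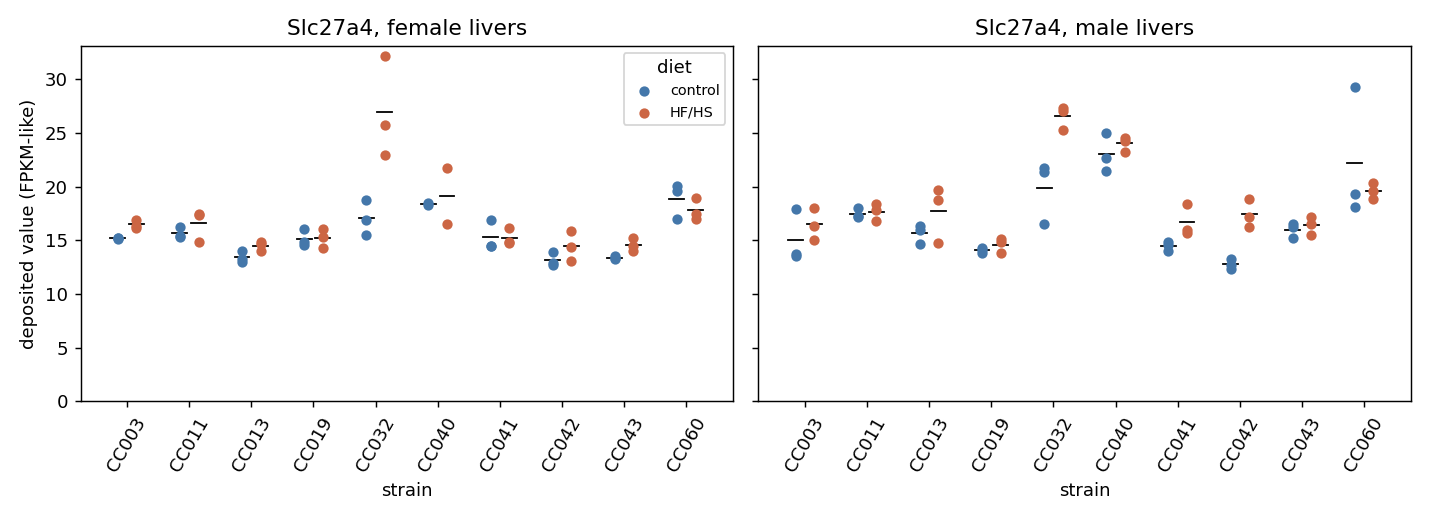
Slc27a4 in each library, as deposited FPKM-like values on a linear axis from 0, by strain, in females (left) and males (right); blue points are control, orange points HF/HS, and bars are group means. The HF/HS points of CC032 lie at 22.9 to 32.1 in females and 25.3 to 27.4 in males, above all control points of that strain, and 1 control male of CC060 lies at 29.2.

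Slc27a1 was low throughout, between 0.351 and 4.85 in all libraries but 1. The exception was a CC060 control female at 11.4, beside 2.82 and 2.58 in the other females of that group. Females exceeded males on control, at 3.21 ± 1.75 against 2.2 ± 0.727, a male minus female difference of -0.36 (adjusted p = 2.06e-05), and on HF/HS, at 3.27 ± 0.903 against 2.70 ± 0.872 (SD), a difference of -0.21 (adjusted p = 0.00983). Females were higher in 8 of 10 strains on control and in 10 of 10 on HF/HS. The HF/HS call was lost without the second female or the first male HF/HS replicates (adjusted p = 0.116 and 0.0646). The diet rise passed in males (0.21, adjusted p = 0.0241) and not in females (0.06, adjusted p = 0.59), and the difference between them, tested directly, did not pass. The male call was lost without the second male control replicates (adjusted p = 0.227), without the second or the third male HF/HS replicates (adjusted p = 0.152 and 0.0648), and without CC011, CC013, CC032 or CC041. No single strain passed. The largest value was 0.41 in CC032 (adjusted p = 0.109), where females went from 3, 2.44 and 2.57 to 4.85, 4.84 and 3.37. On control, CC011 was below the other 7 strains by a difference of -0.48 (adjusted p = 0.00095, with 28.3% of genes called). The F test between strains (F = 3.18, adjusted p = 0.00665), which 86.5% of all genes passed, did not pass without CC011 (F = 0.93).

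Slc27a5, the bile acyl-CoA synthetase, had no common direction on HF/HS. It was higher in 9 groups and lower in 11. All HF/HS libraries lay above the controls in 4 groups and below them in 3, against 11.1% and 10.6% of cases over all genes. CC060 females went up, from 460.2, 605 and 525 to 606, 639 and 667, and CC042 females went down, from 897, 833 and 817 to 799.7, 748 and 723. No strain passed the diet test, and the diet difference did not vary between strains by the F test (F = 0.59, adjusted p = 0.902). Among CC011 females the HF/HS library that was low for Slc27a2 was also low here, at 426 beside 839 and 871, and the CC060 control male that was high for Slc27a4 stood at 1008 beside 535 and 646.

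The sexes did not differ in Slc27a5 by the test on control (0.04, adjusted p = 0.512) or on HF/HS (-0.01, adjusted p = 0.84). The sex difference on control varied between strains (F = 3.21, adjusted p = 0.0255), by a test that 12.4% of genes passed. In CC042 it was -0.37, with females at 817 to 897 and males at 647 to 659 (adjusted p = 0.0716). In CC060 it was 0.42 (adjusted p = 0.0142; 33.4% of genes called), a value that includes the male at 1008. In CC040 it was 0.44 (adjusted p = 0.161), with males at 782 to 798 and the 2 females at 624 and 542.

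Around Slc27a5, part of a list of genes for bile acid side-chain shortening and conjugation rose, but not the conjugating enzyme Baat. Of 8 listed genes, 5 rose on HF/HS (62.5%, against 17.2% of all genes) and none fell, with a median of 0.15 against 0.000588 over all genes. Acox2, an oxidase of bile acid side chains, rose by 0.35, Hsd17b4 of peroxisomal beta-oxidation by 0.25, Scp2, the peroxisomal thiolase that ends side-chain shortening, by 0.24, Acot8, a peroxisomal thioesterase, by 0.18 and the racemase Amacr by 0.13. Baat, the enzyme that conjugates the CoA esters made by SLC27A5 with taurine or glycine, had a value of 0.03 (adjusted p = 0.498), near that of Slc27a5. On control, 7 of the 8 were higher in males (87.5%, against 24.8% of all genes), Scp2 by 1.32 and Baat by 0.32, whereas Slc27a5 was not called.

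Among 15 other genes of lipid uptake and binding, 5 rose and 1 fell on HF/HS (33.3% and 6.67%, against 17.2% and 15.4% of all genes), with a median of 0.12. Fabp2, the intestinal fatty acid binding protein, rose by 0.76, Lpl, the lipase that frees fatty acids from lipoproteins, by 0.71, Fabp4, the binding protein of fat cells and macrophages, by 0.39, Scarb1, the HDL receptor of the CD36 family, by 0.25 and Got2, the mitochondrial aspartate aminotransferase, by 0.079. Fabp5, the epidermal fatty acid binding protein, fell by 1.60. Fabp1, the main binding protein of the hepatocyte, had a value of -0.03 (adjusted p = 0.777). Cd36, at 1.10, had the largest rise of these genes and the 5 described here, and Fabp5 had a larger change in the opposite direction. Fabp5 was the one listed uptake gene whose diet difference differed between sexes, at -2.24 in males and -0.95 in females (difference -1.29, adjusted p = 0.0207).

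The acyl-CoA synthetases outside the SLC27 family were split, with 3 higher and 4 lower among the 11 of 17 listed genes that could be tested (27.3% and 36.4%, against 17.2% and 15.4% of all genes). Acss2, which makes acetyl-CoA from acetate, fell by 1.35, Acsl3 fell by 0.48, Acsl5 by 0.37 and Acsl4 by 0.27. Acsm5, a medium-chain synthetase, rose by 0.32, and Acsf3, a mitochondrial malonyl-CoA synthetase, by 0.24. Acsl1, the major long-chain synthetase of liver, had a value of 0.14 and did not pass (adjusted p = 0.0811). The list's median was 0.08.

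Of 16 regulators of these genes, 2 rose and 4 fell, with a median of -0.003. The share called, 37.5%, was near the 32.6% over all genes. Besides Pparg, the xenobiotic receptor Nr1i3 rose by 0.20. The coactivator Ppargc1a fell by 0.37, Ppard by 0.29, the female-biased repressor Cux2 by 0.26 and Hnf4a by 0.11. Ppara, the main PPAR of hepatocytes, had a value of 0.13 (adjusted p = 0.184). By sex on control, 7 of the 16 were lower and 2 higher in males (43.8% and 12.5%, against 18.8% and 24.8% of all genes). Among them, Cux2 had a male minus female difference of -2.91 and Bcl6, a male-biased repressor, of 1.04. The part of these regulators in the sex differences of Cd36 and Slc27a1 was not tested.

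The 5 genes varied in different ways among themselves. Over the 40 group means centred on each strain, the closest pair was Cd36 with Slc27a1 (r = 0.636), and the next Cd36 with Slc27a2 (r = 0.373). Over the 32 means without CC003 and CC060 the first pair stayed first (r = 0.61), but Slc27a2 with Slc27a4 came second (r = 0.476, against 0.277 over 40 means) and Cd36 with Slc27a2 was at 0.213. Slc27a5 had r between -0.175 and 0.0399 with the other 4. Among all tested genes with a usual gene symbol, those whose pattern over the same 40 means was closest to Cd36 were Atp6v1b2, a subunit of the vacuolar proton pump (r = 0.827), Psap, the precursor of the lysosomal saposins (r = 0.815), Atp8b5 (r = 0.81), Enc1 (r = 0.809) and Dram2, a lysosomal membrane protein (r = 0.805). For Slc27a1 they were Sgms1, a sphingomyelin synthase (r = 0.901), the carnitine transporter Slc22a5 (r = 0.87), Slc4a4, Galnt2 and Cerkl. Nearest to Slc27a2 were Smarcc2 (r = 0.843), the electron transfer flavoprotein dehydrogenase Etfdh (r = 0.824), Ppp6r2, Hsd17b11 and Dhtkd1. Nearest to Slc27a4 were Clstn3 (r = 0.818), Msrb2 (r = 0.805), the mitochondrial dicarboxylate carrier Slc25a10 (r = 0.774), Atp9a and Gtf2h5. Nearest to Slc27a5 were Fxyd1 (r = 0.83), the apolipoprotein gene Apoa2 (r = 0.802), Prodh2, Gchfr and Macrod1. Some of these places rest on CC003 and CC060: over the 32 means of the other 8 strains Atp8b5 and Enc1 ranked 31 and 40 for Cd36, Ppp6r2 and Dhtkd1 ranked 55 and 51 for Slc27a2 and Atp9a ranked 37 for Slc27a4, while the other 20 genes named stayed within the first 11. These are descriptions over means that share diets, sexes and library scaling.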

How the data were processed

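Liver RNA-seq values of 120 libraries were used. Per the submitters' processing notes, TopHat2 2.1.1, Bowtie2 2.2.5.0, Cufflinks 2.2.1 and build mm10 were used. The deposited values are FPKM-like, and the authors appear to have rescaled each library to a 75th percentile near 10; the formula is not given in the sources used here. Read depth is unknown. Genes with a mean of at least 1 were fitted with limma 3.58.1 (R 4.3.3) on log2(value + 1), with 1 mean for each of 40 groups, a trended robust prior and Benjamini-Hochberg adjustment (threshold 0.05). The fit had 78 residual degrees of freedom and was tested on simulated data. The simulation used independent normal noise and the same diet effect in every strain. It therefore does not cover outlying libraries or diet effects that vary between strains. Contrasts compared diets within strain and sex, sexes within diet and strains within diet. The 2 identical columns were left out. Related genes were named where called for the diet effect, up to 6 per list, and similar genes as the 5 with the highest r. The members and lists were chosen with earlier results of these data known. A gene of the list of lipid uptake and binding is not reported here and is not in that list's counts. Alternatives covered pseudocount, filter, scaling, prior, replicate block, strains as units, library weights and leaving out libraries or strains.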

Additional observations from a re-analysis of the deposited data

Results flagged for a closer look

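Each result here was marked because an effect differed between groups by a direct test. The diet difference varied between the 10 strains for Cd36 (F = 7.71) and for Slc27a4 (F = 5.61). For Cd36, CC041 exceeded the other 9 strains by 1.20 on the log2 scale. For Slc27a4, CC032 exceeded the other 9 by 0.44, and CC060 differed from them by -0.26. The male minus female difference of Cd36 varied between strains on the control diet (F = 4.13) and on HF/HS (F = 6.47), and that of Slc27a5 varied on the control diet (F = 3.21). The values of each library behind these tests stand in the report.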

How the results depend on the processing

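Cd36 kept its direction in every alternative run for the diet effect (over all strains, in females and in males) and for both sex differences, and its calls too, except the sex difference on HF/HS with strains as the units (-0.58, adjusted p = 0.0634). That setting also ended the Slc27a4 calls for diet over all strains (0.12), in females (0.11) and in males (0.13) and for sex on control (0.11), and left 2072, 556, 685, 0, 3091 and 3269 called genes for diet over all strains, in females, in males, male minus female, and sex on control and on HF/HS. Beside the 0, from limma, 710 genes had an unadjusted p under 0.05, and the fit over libraries called 107.

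Slc27a1 lost its diet call with a pseudocount of 5 (0.0609), after quantile normalization (0.11), and without strain CC011 (0.12), CC032 (0.10) or CC042 (0.13); in males it lost it without CC011 (0.19), CC013 (0.20), CC032 (0.20) or CC041 (0.20). Its control F test was lost without CC011 (0.926), and it had no value with a filter at a mean of 5. Slc27a2 in females passed after quantile normalization (0.22), with library weights (0.22), without CC011 (0.20) and without the 3 outlying libraries together (0.23), a setting added after seeing the data. Slc27a2 by sex on HF/HS passed after quantile normalization (0.20), with all 120 columns (0.18), with library weights (0.13) and without CC019 (0.20), CC042 (0.21), CC043 (0.19) or CC060 (0.20). On control its sex difference turned to 0.0255 without CC003 and CC060. Its control F was 2.87 after quantile normalization and 4.60 with library weights, and its sex by diet difference passed with weights (0.26). Without CC032 the Slc27a4 female value was 0.0549 and its F between strains 2.29; without CC042 its sex by diet difference was -0.00958.

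Slc27a5, near 0 throughout, changed sign often. For diet over all strains it was 0.0718 after quantile normalization, 0.0149 with library weights, 0.0154 without the 3 libraries, 0.00138 without CC011 and 0.00427 without CC032. In females it was -0.0155 without CC003 and CC060, -0.00355 without CC019, -0.0169 without CC040 and -0.0129 without CC060. In males it was 0.0768 after quantile normalization (adjusted p = 0.0266) and 0.00441 with weights. Male minus female diet values were 0.00996 after quantile normalization and 0.00439 without CC040. By sex on control it was -0.018 with weights, -0.00708 without CC040 and -0.0046 without CC060. By sex on HF/HS it was 0.0211 after quantile normalization, 0.00599 without CC013 and 0.0138 without CC019.

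Library weights gave F values between strains of 4.87 for Slc27a1, 2.92 for Slc27a2 and 3.71 for Slc27a5, all called, and 6012, 3936, 4788, 846 and 7203 called genes for diet over all strains, in females, in males, male minus female and between strains. Called genes for diet between strains were 1093 with no filter, 448 with a filter at a mean of 5, 1608 without the 3 libraries, 346 without CC032 and 401 without CC042. For diet in females they were 1420 without CC032 and 1419 without CC043, and for male minus female 58 without CC003 and CC060, 51 without CC013 and 57 without CC043.

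Leaving out replicates gave ranges over 15 fits. For Slc27a1 these were 0.0926 to 0.18 for diet over all strains, -0.0201 to 0.15 in females, 0.14 to 0.25 in males, -0.26 to -0.16 for sex on HF/HS and F values of 2.05 to 4.78 for strains on control. For Slc27a2 they were 0.0846 to 0.23 for diet in females and 0.11 to 0.25 for sex on HF/HS. For Slc27a4 they were 0.0875 to 0.13 for diet in females, -0.00107 to 0.0487 for male minus female and 0.0831 to 0.13 for sex on control. For Slc27a5 they were -0.0309 to 0.0204, -0.0092 to 0.0491 and -0.0776 to 0.025 for diet over all strains, in females and in males, -0.0933 to 0.00931 for male minus female, -0.022 to 0.0806 for sex on control and -0.046 to 0.0123 for sex on HF/HS. Called genes ranged from 1397 to 2673 for diet in females, 36 to 134 for male minus female and 284 to 961 for diet between strains. The causes were not tested.

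Within a strain and sex, libraries of different diets with the same replicate number did not deviate together (median r = -0.012 over 58 pairs, 9 above 0.1). Pairs with other numbers had a median r of 0.014 (117 pairs, 20 above 0.1). This check does not cover batches that span strains or sexes. With replicate number as a block over all groups, Slc27a2 by sex on HF/HS passed (0.18, adjusted p = 0.0463). The block changed no other call of the 5 genes for diet or sex over the strains. Nor did it change one in the F tests of diet between strains and of strains on control. Comparisons within single strains were not run with it. For diet over all strains 3998 genes were called, against 3975. Depth in reads is unknown, which limits Slc27a1 most, since its values were low.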
